A study of Mus musculus with 8 samples.

Results

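The comparison set B cells of C57BL/6 mice taken 33 h after activation, when they were about to divide for the first time (imminent division, 2 libraries), against B cells of C57BL/6 FUCCI mice taken at the same time but before DNA synthesis (pre-S, 2 libraries). These are 4 of the 8 in situ Hi-C libraries analysed, placed in groups by their labels. The other 4, 2 at 3 h and 2 at 10 h, came from C57BL/6 mice and are used for reference and for the common estimate of spread. All cultures were splenic B cells isolated by negative selection, labelled with CellTrace Violet (CTV, a dye diluted by division) and stimulated with LPS at 25 μg/ml. LPS is a bacterial product that drives B cells into the cell cycle. Per the study's methods, the mice were male, 6 to 12 weeks old and on a C57BL/6 Pep3b background. Both 33 h populations were sorted as undivided CTV-bright CD69+ cells, and the pre-S cells additionally as mKO2-high mAG-negative. FUCCI mice carry fluorescent fragments of cell cycle proteins, with mKO2 marking G1 and mAG marking S, G2 and M. The imminent division gate used no cell cycle reporter, so the FUCCI transgene and the gate differed together with the group and cannot be told apart. The study treats the imminent division cells as a bulk population and the pre-S cells as its G1 part. The imminent division libraries may thus hold G1 cells too, in a share that was not measured.

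Hi-C ligates stretches of chromatin that lie close together in the nucleus, so that the number of read pairs joining a pair of regions reports how often they touch. At the scale used here, chromosomes are arranged in an active compartment A and an inactive, gene-poor compartment B, each of which prefers its own kind. Below that, they fold into domains (TADs) whose boundaries hold down contacts between neighbours. Chromosomes lose both features when they condense for mitosis and regain them in G1.

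The measurements were raw read pairs between 50 kb bins on the 19 autosomes, with chromosome 15 from 55 to 72 Mb left out, which kept 47000 bins. Depth was 180325399 and 218945191 read pairs for imminent division, against 117386199 and 105015427 for pre-S. The intrachromosomal share of autosomal pairs was 71.3% and 70.9% in the imminent division libraries, against 74.1% and 72.1% in the pre-S libraries. In every result below, positive differences are higher at imminent division, and values are log2 unless said otherwise. Features passed at a false discovery rate (FDR) of 5%, with n = 2 libraries a group throughout. The study describes biological replicates, but neither its methods nor the labels say whether they came from separate mice, so p-values measure the spread between these libraries. Markers of the cell type could not be checked, since only chromatin contacts were measured.

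Before any intrachromosomal contact was compared, the bins themselves were covered unequally. Coverage was taken as the number of interchromosomal read ends per bin, as a share of the library. In compartment A, 8532 of 19839 bins were covered more at imminent division and 110 less, with a median difference of 0.12. In compartment B, 1020 of 27161 bins were covered more and 11412 less, with a median difference of -0.14. Over all bins, 44.8% passed the edgeR quasi-likelihood test, 9552 higher (20.3%) and 11522 lower (24.5%). With all read ends as coverage instead, 15701 bins passed, 8559 higher and 7142 lower, of which 9712 were shared in direction with the calls above.

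The difference followed base composition. Bins were cut into eighths by GC content, and the eighth poorest in GC had a median difference of -0.25, while the eighth richest in GC had one of 0.11. Coverage of the GC-poor eighth, relative to the mean of the 8 libraries, was 0.29 and 0.27 in the pre-S libraries and 0.11 and -0.07 at imminent division. It was -0.27 and -0.12 at 3 h and -0.11 and -0.09 at 10 h. The pre-S libraries therefore stood above the other 6, while the imminent division replicates lay on either side of the mean. Pearson's r between GC content and the difference was 0.642 over the 47000 bins, which share their libraries. The standard deviation of the difference over bins was 0.175, against 0.115 between the imminent division replicates and 0.0775 between the pre-S replicates. The number of bins that passed depended on 3 libraries. It was 6780 without imminent division replicate 2, 7265 without pre-S replicate 1 and 12089 without pre-S replicate 2. Without imminent division replicate 2, which lay below the mean in GC-poor bins, 2229 bins of A were covered more and 42 less (median 0.08), and 326 bins of B more and 4183 less (median -0.09). The GC-poor and GC-rich eighths then had medians of -0.16 and 0.06. The medians kept their sign without any 1 of the 4 libraries. Whether coverage followed DNA copy number, base composition in sequencing or nuclear position was not tested.

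Coverage per bin was therefore built into the expected contact of every bin pair. To choose its weight, slopes were read from pairs of libraries. If coverage were a plain efficiency of each bin, pair counts would rise in proportion to the product of both coverages, a slope of 1 on the log scale. Measured slopes were 0.48 to 0.57 between the imminent division replicates at distances from 50 kb to 20 Mb, 0.41 to 0.68 between the 3 h replicates and 0.08 to 0.18 between the pre-S replicates, whose coverage differed least. Values below use a weight of 0.5, which lies near the slopes of the imminent division and 3 h replicates but above those of the pre-S replicates. The pairs thus did not settle on 1 weight. The main counts and directions are also given without correction and at the full weight of 1.

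Between imminent division and pre-S, the slope itself changed with distance. It was 0.37 at 50 kb, 0.05 at 500 kb, -0.06 at 1 Mb, and 0.41, 0.51 and 0.55 at 5, 10 and 20 Mb. Between 10 h and pre-S it lay between 0.49 and 0.60 at every one of those distances. From about 500 kb to 2 Mb, the pair counts of the 33 h groups thus hardly followed their difference in coverage.

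Imminently dividing B cells had more contacts between 100 and 1200 kb and fewer from 2000 to 79200 kb, while for adjacent bins the groups overlapped. Contact density, corrected for coverage and scaled to each library's own intrachromosomal total, was higher at imminent division by 0.19 at 100 kb, by 0.28 between 200 and 450 kb and by 0.12 between 800 and 1200 kb. It was lower by 0.10 between 2000 and 3100 kb, by 0.14 from 3150 to under 5000 kb and by 0.28 between 50000 and 79200 kb. Of 312 combinations of chromosome and distance, 85.3% passed the limma test, 114 higher (36.5%) and 152 lower (48.7%).

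At 300 to 450 kb the density was 4.43 and 4.40 at imminent division, 4.14 and 4.12 at pre-S, 4.04 and 4.02 at 10 h and 3.94 and 3.94 at 3 h. The 4 groups did not overlap, and the order ran from 3 h to 10 h, pre-S and imminent division. At 50000 to 79200 kb the density was -1.63 and -1.58 at imminent division, -1.33 and -1.32 at pre-S and between -1.28 and -1.22 in the 4 earlier libraries. There, imminent division lay below all 6 other libraries.

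Every autosome measured shared the direction of change from 100 to 1200 kb and from 2000 to 79200 kb, though not all passed in every class. All 19 were higher in each distance class from 100 kb to 1200 kb, and all 19 were lower from 2000 to under 5000 kb. In the classes from 5000 to 31500 kb, 17, 17, 14 and 17 of the 19 passed as lower and none as higher. The difference nearest to 0 there was -0.004, on chromosome 11 at 12550 to 19850 kb. At the crossing, from 1250 to under 2000 kb, the genome-wide values of the groups overlapped and 3 chromosomes were lower. At 50 kb, between adjacent bins, the groups also overlapped (difference -0.01). Read pairs within a bin, which were not tested, were 0.31 lower at imminent division. Chromosome 16 had the lowest difference in every distance class from 1250 to 19850 kb, and reached -0.43 at 50000 to 79200 kb.

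**Figure D1:**
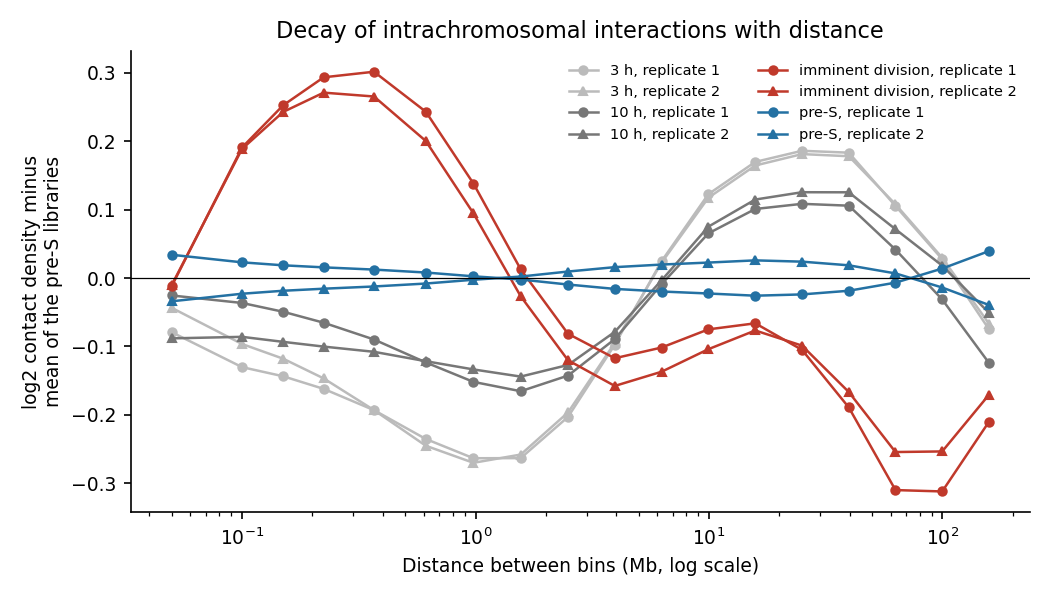
Contact density of each library (log2, corrected for coverage at a weight of 0.5) minus the mean of the pre-S libraries, against the distance between bins (Mb, log scale). Circles are replicate 1 and triangles replicate 2. The imminent division libraries lie 0.28 above pre-S between 200 and 450 kb and 0.28 below it between 50000 and 79200 kb, with the crossing from 1250 to under 2000 kb.

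Summary values per library were as follows. The slope of contact on distance from 500 kb to 7 Mb was -1.07 in both imminent division libraries and -0.99 and -0.98 at pre-S. The share of intrachromosomal contacts beyond 1.5 Mb was 47.1% and 47.4% against 50.2% and 51.4%. At 3 h and 10 h, slopes lay between -0.94 and -0.88 and shares between 52.2% and 54.0%. For both measures the groups did not overlap, with p = 0.333 in the two-sided exact permutation test, the smallest that 2 against 2 libraries can give. The difference in slope was -0.09 without coverage correction and -0.08 at full weight.

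Contacts between the compartments were higher at imminent division, whereas for contacts within them no band of distance kept the groups apart in 1 direction at all 3 weights of coverage. At a weight of 0.5, A–A contacts were lower at imminent division on all 19 chromosomes from 0.1 to 0.5 Mb and on all 19 from 0.5 to 2 Mb, with medians of -0.08 and -0.13. B–B contacts were higher on all 19 chromosomes in both bands, with medians of 0.11 and 0.17. A–B contacts were higher on 16 chromosomes from 0.1 to 0.5 Mb (median 0.06) but on only 5 from 0.5 to 2 Mb (median 0.03). They were higher on 19 from 2 to 10 Mb (median 0.11) and on 18 from 10 to 50 Mb (median 0.11), and on no chromosome lower in any band. Of 228 combinations of chromosome, class and distance, 73.7% passed the limma test, 115 higher (50.4%) and 53 lower (23.2%).

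From 0.5 to 2 Mb, observed over expected B–B contact was 0.77 and 0.79 at imminent division, against 0.62 and 0.61 at pre-S. The 3 h libraries, at 0.63 and 0.68, and the 10 h libraries, at 0.57 and 0.55, stood near pre-S. A–A contact in the same band was -0.27 and -0.24 at imminent division, -0.12 and -0.13 at pre-S and 0.01 and 0.01 at 10 h. Imminent division was thus beyond the 6 other libraries in both classes.

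From 10 to 50 Mb, A–A contacts were higher on 16 chromosomes (median 0.08) and B–B contacts lower on 13 (median -0.05). In that band, A–A contact was 0.07 and 0.11 at imminent division, 0.02 and 0.01 at pre-S and between 0.07 and 0.11 earlier. A–B contact was -0.98 and -0.96 at imminent division, within the range of the 3 h libraries, and -1.12 and -1.04 at pre-S. Pre-S thus lay below every other library for A–A and A–B contact. For B–B contact, the 3 h and 10 h libraries lay between the groups. From 2 to 10 Mb the groups overlapped for A–A and B–B contacts, with medians of 0.01 and 0.01.

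The direction within compartments depended on the weight given to coverage, except from 0.5 to 2 Mb, where the size of the difference did. Without correction, A–A and B–B differences were 0.01 and -0.04 from 0.1 to 0.5 Mb and -0.04 and 0.01 from 0.5 to 2 Mb, with overlapping groups. Counts hardly followed coverage from 500 kb to 2 Mb, as given above. The step from -0.04 to -0.13 in A–A and from 0.01 to 0.17 in B–B contacts is the difference between no correction and a weight of 0.5. Which weight is nearer to the true contacts at this range was not tested. Differences between A and B at this range in DIs, insulation and locus contacts also include the correction. Values without it are given below, for DIs over all distances only. B–B contacts were, without correction, lower by 0.13 and 0.17 in the wider bands. At full weight B–B contacts were higher at every distance, by 0.08 to 0.33, and A–A contacts lower at every distance. A–B contacts were higher at every weight and distance, by 0.02 to 0.11, although at full weight the groups overlapped from 0.5 to 2 Mb.

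**Figure D2:**
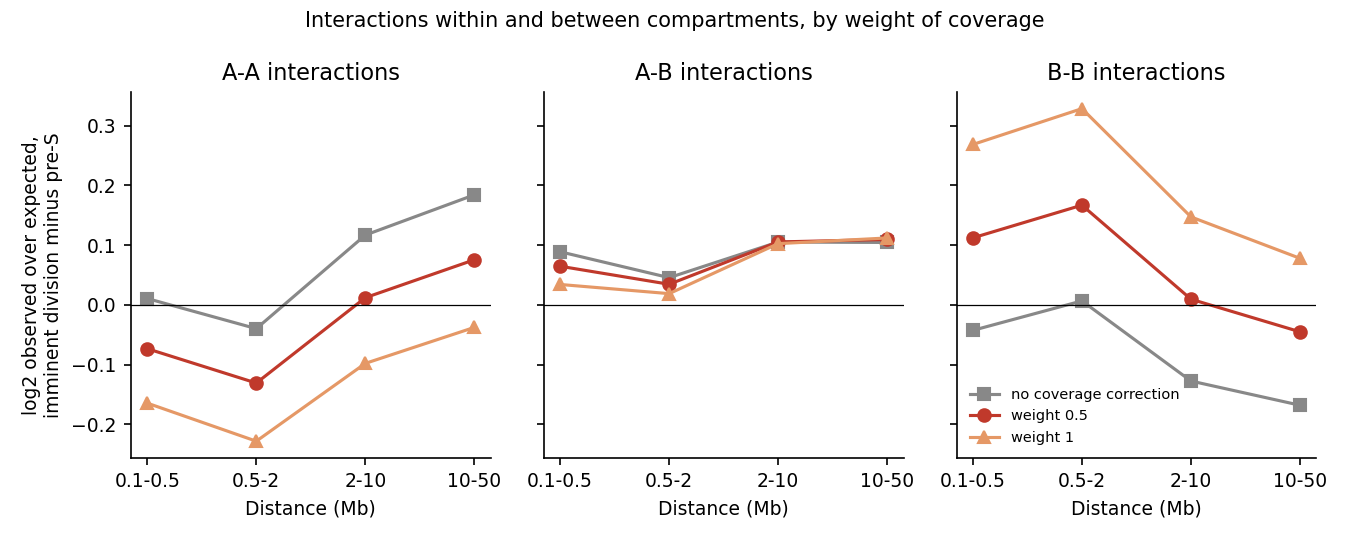
Difference in observed over expected contact (log2, imminent division minus pre-S, means of 2 libraries a group) for A–A, A–B and B–B bin pairs by distance (Mb), without coverage correction (squares), at a weight of 0.5 (circles) and at full weight (triangles). The A–B points lie above 0 at every weight, whereas A–A and B–B points cross 0 with the weight except from 0.5 to 2 Mb. In that band A–A points lie below 0 and B–B points above 0 at every weight.

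Compartment strength, the mean of A–A and B–B over A–B contact beyond 2 Mb in the outer 20% of bins at each end, was 15.4 and 16.6 at imminent division, against 25.3 and 19.2 at pre-S. The 4 earlier libraries lay between 22.0 and 24.9. Observed over expected A–B contact, on a linear scale, was 0.151 and 0.141 at imminent division, against 0.0973 and 0.125 at pre-S. The 33 h groups did not overlap (p = 0.333 in the two-sided exact permutation test), but the pre-S replicates were themselves far apart, with an SD of 4.31 beside a difference of -6.27 between the group means. With the interchromosomal background density removed, strength was 22.3 and 25.1 against 42.1 and 28.8.

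Among individual bin pairs, weaker contacts within compartment A were the most frequent change at a weight of 0.5, though not without coverage correction. Of 1444530 bin pairs tested, 0.246% were differential interactions (DIs) by the edgeR quasi-likelihood test, 897 stronger (0.0621%) and 2660 weaker (0.184%) at imminent division. Weaker DIs joined A to A in 75.0% of cases, against 37.2% of the pairs tested, and spanned a median of 850 kb, the same as all pairs tested. Stronger DIs joined B to B in 52.2% of cases, against 46.4% of those tested, and spanned a median of 300 kb. The number called depended on each library. It was 661 and 428 without imminent division replicate 1 or 2, and 205 and 699 without pre-S replicate 1 or 2, with the weaker DIs still in the majority each time.

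From 500 kb to under 1 Mb, 960 of 123525 A–A pairs were weaker and 13 stronger, whereas 46 of 186567 B–B pairs were weaker and 125 stronger. Between 100 and 150 kb, stronger DIs prevailed in every class, with 113 against 14 in A–A, 40 against 2 in A–B and 60 against 5 in B–B pairs. With a separate factor for each distance class, 913 DIs were stronger and 6281 weaker, 84.9% of the weaker ones being A–A, and at 100 to 150 kb weaker A–A DIs then outnumbered stronger ones by 1007 to 20.

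The weight of coverage changed which pairs were called. Without correction there were 940 stronger and 2202 weaker DIs, of which 1301 were shared in direction with those above, and the compartments changed places: 66.7% of the weaker ones were B–B and 60.3% of the stronger ones A–A, while 57.1% of the weaker ones joined adjacent bins. At full weight there were 9997 stronger and 12876 weaker, 3468 shared. In 100 kb bins there were 9697 and 15905, of 279713 pairs tested. DESeq2's Wald test gave 240264 pairs an adjusted p and called 2 stronger and 3 weaker, all 5 shared. The 3 weaker ones joined *Rad51b* to *Plekhd1*, *Snx4* to *Umps* and the *Rab33b* bin to a region at higher coordinates, described below.

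**Figure D3:**
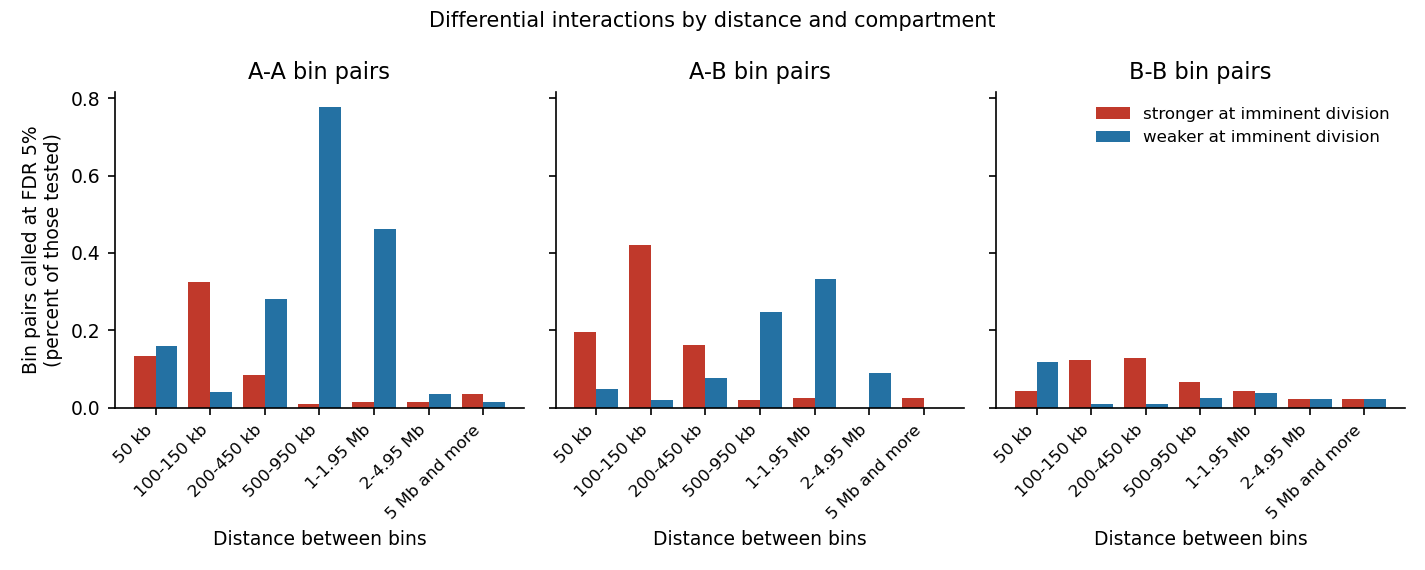
Share of tested bin pairs called at FDR 5% (percent, bars from 0) as stronger or weaker at imminent division, by distance between the bins and by compartment of both ends, at a weight of 0.5. Weaker A–A pairs from 500 kb to under 1 Mb form the tallest bars, at 0.777%. Without coverage correction, 66.7% of the weaker pairs over all distances were B–B, and shares by distance were not computed.

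The 5 stronger and 5 weaker DIs with the smallest p were located. The first and the second stronger DI joined adjacent bins at chr4:89149908-89249721 (over *Mtap*, an enzyme of methionine salvage) and chr13:89849685-89950072 (over *Xrcc4*, a factor that joins broken DNA ends). In each, 1 of the bins was covered less at imminent division than at pre-S, with coverage differences of -1.57 and -1.03. Their differences of 0.93 and 0.83 shrank to 0.12 and 0.26 without correction and then did not pass (adjusted p = 0.81 and 0.47).

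The third stronger DI held at every weight. It lay at the edge of the histone gene cluster of chromosome 13 and joined chr13:23249828-23300042, over the vomeronasal receptor gene *Vmn1r223*, to chr13:23400400-23450277, which holds the start of *Abt1*, 150 kb away. Its counts were 101 and 121 at imminent division, against 19 and 18 at pre-S, and between 12 and 32 in the earlier libraries. Imminent division was above every other library. The difference was 1.46 ± 0.23 (SE, adjusted p = 3.3e-05), and it passed without correction too (adjusted p = 1.9e-04). Without pre-S replicate 1 its adjusted p was 0.067.

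The fourth joined adjacent bins at chr11:78200404-78300059 around *Supt6*, a transcription elongation factor, and *Sdf2* (0.50 ± 0.08, SE). Its adjusted p was 0.079 without pre-S replicate 1, and with TMM factors its difference was 0.22 (adjusted p = 0.22). The fifth spanned 14200 kb of chromosome 11, from chr11:87449977-87500464, over the testis gene *Tex14*, to chr11:101650005-101699956 at *Arl4d*, a small GTPase, both in A. Its counts were 60 and 89 at imminent division, 17 and 20 at pre-S, 24 and 31 at 10 h and 5 and 9 at 3 h (1.45 ± 0.25, SE, adjusted p = 1.7e-04). The groups were far apart, but the adjusted p was 0.052 without imminent division replicate 2 and 0.13 without pre-S replicate 1.

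All 5 weaker DIs passed at every weight. The one with the largest difference joined chr7:43650410-43700194, which holds the starts of *Siglece*, *Ctu1* and *Klk14*, to chr7:44650121-44699962 at *Myh14*, a non-muscle myosin. Its counts were 9 and 9 at imminent division, despite the greater depth, against 28 and 20 at pre-S (-2.66 ± 0.37, SE, adjusted p = 5.9e-07). They were 2 and 9 at 3 h and 15 and 17 at 10 h. Adjusted for depth and coverage, imminent division (2.65 and 2.29) lay between the 3 h libraries (2.01 and 3.06). Pre-S (5.22 and 4.93) stood above every other library. The counts were low, and DESeq2's Wald test gave this pair no adjusted p. The others joined *Rad51b*, a recombination factor, to *Plekhd1* over 1400 kb of chromosome 12 (-1.38) and *Snx4*, a sorting nexin, to *Umps*, an enzyme of pyrimidine synthesis, over 700 kb of chromosome 16 (-1.29). They also joined the *Rab33b* bin to chr3:52199828-52249626 (-0.98) and *Arhgef3* to *Erc2* over 550 kb of chromosome 14 (-1.50). Raw counts of the groups overlapped in the first 3 of these, where the imminent division libraries are deeper. Counts adjusted for depth and coverage overlapped in none of the 4, as the rule that picked them required.

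Scores of TAD boundaries were higher at imminent division by a median of 0.11, beside 0.08 over bins that were no boundary. Insulation was scored for each bin as observed over expected contact across it, 500 kb to either side, so that boundaries are minima of the score. Minima were called on the mean score of all 8 libraries, not within each group. Of 2144 minima, 56.2% passed the limma test, 1008 higher (47%) and 197 lower (9.19%), and the median score was -0.58 at imminent division and -0.68 at pre-S. Over all 45964 bins scored, 62.9% passed, 20089 higher (43.7%) and 8818 lower (19.2%), and in 84.6% every library of 1 group lay above every library of the other. The medians of the minima were -0.59 and -0.59 at imminent division, -0.69 and -0.66 at pre-S, and between -0.67 and -0.63 in the earlier libraries. Imminent division was above the 6 other libraries.

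The median difference of the minima was 0.19 in compartment B and 0.04 in A. Of 987 minima in B, 666 rose and 20 fell, with medians of -0.42 and -0.43 at imminent division, against -0.62 and -0.58 at pre-S. Of 1157 minima in A, 342 rose and 177 fell, with medians of -0.70 and -0.69 against -0.74 and -0.71. Over all bins of A the score was lower by a median of 0.07, opposite in sign to the minima there, and over all bins of B it was higher by 0.18. Without correction, the median differences over all bins of A and of B were -0.0036 and 0.0145. The difference between the compartments was not tested.

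The median difference of the minima was above 0 at each of the 3 weights, but its size beside the other bins was not the same. Without correction, 557 minima rose and 20 fell, with a median difference of 0.11, against 0.00 for bins that were no minimum, and the medians were 0.12 in A and 0.10 in B. At full weight 881 minima rose and 409 fell, and their median of 0.07 lay below that of 0.09 for the other bins. The median of the minima in A turned to -0.05 there, while that in B was 0.26. With a window of 250 kb, 965 minima rose and 41 fell. With one of 1 Mb, 711 rose and 501 fell.

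**Figure D4:**
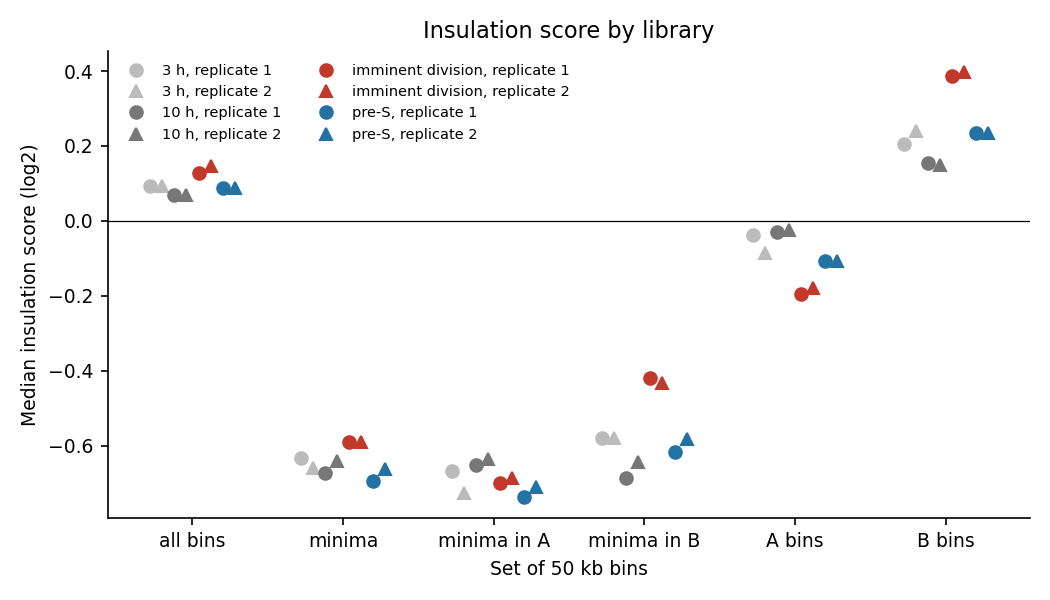
Median insulation score (log2) of each library over sets of 50 kb bins, at a weight of 0.5. Circles are replicate 1 and triangles replicate 2. For the minima in B, the imminent division libraries lie at -0.42 and -0.43 and the pre-S libraries at -0.62 and -0.58, whereas in A the medians lie between -0.74 and -0.64.

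By the same rule, 4 minima that rose and 4 that fell were located. The boundary at chr7:75050460-75100216, which holds no gene start, scored -0.57 and -0.60 at imminent division and between -1.30 and -1.16 in the 6 other libraries (0.58 ± 0.05, SE, adjusted p = 4.1e-07). That at chr16:55450160-55499863 scored -0.48 and -0.64 against -1.40 and -1.33 at pre-S, with 3 h (-0.81 and -0.65) between and 10 h (-1.27 and -1.14) near pre-S. At chr1:144399660-144450294, scores were 0.09 and 0.04 against -0.41 and -0.41. All 3 passed at every weight.

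The fourth, chr18:86450092-86500605 within *Neto1*, a subunit of neuronal glutamate receptors, differed in kind. Its scores of 0.32 and 0.29 at imminent division lay close to those at 3 h and 10 h (0.17 to 0.29), while pre-S stood apart at -0.18 and -0.18. Without correction the difference was 0.16 (adjusted p = 0.18).

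Minima that fell lay in A and passed at every weight. They were chr2:132199885-132249950 over *Tmem230* and *Pcna*, the sliding clamp of DNA replication (-0.44), chr5:76850129-76899811 (-0.38), chr17:35799677-35850394 at *Ier3*, *Flot1*, *Tubb5* and *Mdc1* (-0.41), and chr13:23699500-23750089 at *Hist1h1c* and *Hfe* (-0.39). The last, in the histone cluster, scored -1.56 and -1.55 at imminent division, -1.20 and -1.13 at pre-S and between -0.87 and -0.71 earlier.

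Among loci the study discusses, *Bcl6* had the largest change in insulation. *Bcl6* is the repressor that directs the germinal centre programme. Its bin, chr16:23949662-24000034, is a minimum that scored -0.91 and -0.94 at imminent division, -1.79 and -1.58 at pre-S, and between -1.79 and -1.71 at 3 h and 10 h. Imminent division stood apart from all 6 other libraries. The difference was 0.76 ± 0.07 (SE, limma adjusted p = 4.5e-07), 0.89 without correction and 0.62 at full weight. It was 1.09 with a window of 250 kb and 0.27 with one of 1 Mb.

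*Pax5*, which maintains B cell identity, and *Bach2*, a repressor of plasma cell fate, do not lie in minima. The *Pax5* bin fell from -0.09 and -0.05 to -0.45 and -0.49 (-0.40 ± 0.04, SE, adjusted p = 7.2e-07). The *Bach2* bin fell from 0.38 and 0.33 to 0.12 and 0.09 (-0.25 ± 0.04, SE, adjusted p = 3.9e-05), though without correction its difference of -0.12 did not pass (adjusted p = 0.16). The *Ebf1* bin, at the gene of another B cell factor, rose by 0.22 (adjusted p = 0.0016), but by 0.10 at full weight (adjusted p = 0.14), and with a window of 250 kb the difference was -0.0032. *Twistnb*, *Prdm1*, *Id2* and *Ell2* did not pass, with differences of 0.13, -0.06, 0.09 and 0.08 (adjusted p from 0.10 to 0.23). The *Prdm1* bin passed at full weight (-0.16, adjusted p = 0.031). With a window of 250 kb all 4 bins passed, with differences of 0.22, -0.16, 0.27 and 0.18 in the same order, but with one of 1 Mb *Twistnb* passed in the opposite direction (-0.16, adjusted p = 0.0019).

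The A/B pattern itself was nearly the same in the 33 h groups. The compartment value of a 100 kb bin is its first principal component, positive in A. The group means correlated at r = 0.996 over 23621 bins, a description, since the groups share the genome's layout. A bins made up 41.5% and 41.4% of bins in the imminent division libraries, against 41.6% and 40.8% in those of pre-S. By limma, 24.8% of bins differed, 4464 towards A (18.9%) and 1395 towards B (5.91%). Without correction the split was 6685 and 525, at full weight 2575 and 2654, and with quantile normalization 2354 and 2420, so the excess towards A depended on the scaling. Without imminent division replicate 1 or 2, 3026 and 1868 bins differed, and without pre-S replicate 2, 2458.

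Switches of sign in every library took in 0.965% of bins, 128 from B at pre-S to A and 100 from A to B. Without correction they were 239 and 38, and at full weight 59 and 180. Their net direction thus changed with the weight, and without pre-S replicate 2 as well (151 to A and 189 to B). The 8 located here passed in the same direction at every weight and without any 1 of the 4 libraries.

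The largest switch to A was chr16:23700001-23800000, at lower coordinates than the *Bcl6* bin described above. Its values were 0.21 and 0.21 at imminent division, -0.30 and -0.25 at pre-S and between -0.26 and -0.17 earlier (0.48 ± 0.04, SE, adjusted p = 1.1e-06). Of the 8 libraries, only those of imminent division were above 0. The others to A were chr13:100200001-100300000 at *Naip2* and *Naip5*, sensors of bacterial proteins (0.44), chr3:138200001-138300000 at the alcohol dehydrogenase genes *Adh7* and *Adh1* (0.42), and chr2:104200001-104300000 (0.42).

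The largest switch to B was chr18:86600001-86700000, beside the *Neto1* minimum. Its values were -1.12 and -0.95 at imminent division, against 0.20 and 0.04 at pre-S (-1.16 ± 0.07, SE, adjusted p = 3.1e-09). At 3 h and 10 h they lay between -0.70 and -0.49, so both 33 h groups had left the earlier range, in opposite directions. The *Habp2* bin, chr19:56200001-56300000 (-0.36), and chr7:96400001-96500000 (-0.35) were in A at pre-S only. The *Pou4f1* bin, chr14:104400001-104500000, which holds the gene of a neuronal transcription factor, was in A at 3 h, 10 h and pre-S and scored -0.26 and -0.17 at imminent division (-0.33).

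Locus contacts were the summed contacts of each bin holding the start of a protein-coding gene with bins 100 kb to 2 Mb away, relative to expectation from coverage and decay. Of 16 histone gene bins, 13 were lower at imminent division and none higher, with 5 lower without correction and 15 at full weight. Of 15 protocadherin bins, 10 were higher and 1 lower, with 8 and none without correction and 10 and 2 at full weight, though none was higher over 100 kb to 10 Mb. Of 13191 gene-start bins, 39.7% passed the edgeR quasi-likelihood test, 1888 higher (14.3%) and 3355 lower (25.4%). Without pre-S replicate 1 or 2, 2866 and 3345 passed. With TMM factors in place of the decay-based expectation the split was 1105 higher and 875 lower, and without coverage correction 183 and 49, with 171 and 45 of these shared in direction. At full weight it was 2356 and 5693. Across bins, the locus difference and the coverage difference had r = -0.71 at a weight of 0.5, 0.07 without correction and -0.88 at full weight. Only 123 higher and 41 lower loci passed in the same direction at all 3 weights.

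To show what such bins contain, promoters of 4 of the genes were taken from RefSeq (GRCm38.p6, plus strand of the chromosome for each gene, 5′ to 3′, 250 bases before the start to 50 after). They are those of *Wls* and *Olfr822*, in bins that gained contact, and of *Hist1h1c* (*H1f2* in RefSeq) and *Ebf1*, in bins that lost it. Capitals mark GATC, the site cut by MboI, where ligation can occur. The site reads alike on both strands, and 47.7% of the 31396 autosomal promoter windows of this length hold one.
Wls, chr3:159839400-159839699: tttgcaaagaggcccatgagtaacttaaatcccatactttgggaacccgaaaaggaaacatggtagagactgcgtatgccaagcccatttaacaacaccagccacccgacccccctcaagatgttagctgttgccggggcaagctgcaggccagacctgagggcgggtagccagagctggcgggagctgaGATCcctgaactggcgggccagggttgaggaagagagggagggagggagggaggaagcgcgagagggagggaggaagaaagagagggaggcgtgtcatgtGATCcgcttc
Olfr822, chr10:130074162-130074461: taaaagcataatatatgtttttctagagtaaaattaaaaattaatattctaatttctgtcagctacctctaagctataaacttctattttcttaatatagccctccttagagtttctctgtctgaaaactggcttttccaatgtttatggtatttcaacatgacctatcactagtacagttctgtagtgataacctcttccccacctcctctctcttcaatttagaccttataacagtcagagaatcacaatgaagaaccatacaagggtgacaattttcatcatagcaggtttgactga
Hist1h1c, chr13:23738557-23738856: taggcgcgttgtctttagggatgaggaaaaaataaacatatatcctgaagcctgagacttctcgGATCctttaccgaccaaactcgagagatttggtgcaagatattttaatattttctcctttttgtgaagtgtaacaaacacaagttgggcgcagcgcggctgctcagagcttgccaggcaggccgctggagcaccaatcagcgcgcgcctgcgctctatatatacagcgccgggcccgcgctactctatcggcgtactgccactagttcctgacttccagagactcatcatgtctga
Ebf1, chr11:44617850-44618149: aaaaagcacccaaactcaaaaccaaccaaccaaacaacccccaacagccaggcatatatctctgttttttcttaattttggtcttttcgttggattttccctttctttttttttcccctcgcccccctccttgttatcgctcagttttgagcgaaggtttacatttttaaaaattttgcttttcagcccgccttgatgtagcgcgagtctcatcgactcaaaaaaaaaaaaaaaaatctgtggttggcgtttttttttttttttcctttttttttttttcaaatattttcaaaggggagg
GC content was 58% for *Wls*, 33.3% for *Olfr822*, 50.3% for *Hist1h1c* and 36.7% for *Ebf1*. Their 50 kb bins held 116, 144, 127 and 111 MboI fragments, so contact of a bin is gathered over many sites beyond its promoter.

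Replication-dependent histone genes supply the histones that package newly made DNA, and most lie in clusters on chromosome 13. Their 67 genes fall in 16 bins, all in A, of which 13 were lower and none higher. The median difference was -0.22, against -0.08 for all gene-start bins in A. The median contact of these bins was -0.14 and -0.12 at imminent division, 0.08 and 0.09 at pre-S and between 0.22 and 0.28 earlier. Imminent division was lowest, and 15 of the 16 bins had groups that did not overlap, against 72.2% of all bins tested. Without correction 5 were lower and none higher (median -0.16), and the median was below 0 under every other setting tried.

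The strongest was chr13:23649774-23699503, with the starts of *Hist1h2ac*, *Hist1h2bc*, *Hist1h1t* and *Hist1h4c*. It had -0.58 and -0.53 at imminent division, -0.06 and -0.08 at pre-S and between 0.07 and 0.27 earlier (-0.48 ± 0.05, SE, adjusted p = 3.5e-11). The bins of *Hist1h1d* (-0.42), *Hist1h1c* (-0.39) and *Hist1h1a* (-0.32) also passed at every weight. These bins neighbour each other, so they are not independent.

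Protocadherins are cell adhesion proteins of neurons, encoded in tandem arrays on chromosome 18. Of their 15 bins, 10 were higher and 1 lower, with a median difference of 0.33 (0.34 without correction and 0.29 at full weight). Their median contact was -1.05 and -1.13 at imminent division, -1.53 and -1.44 at pre-S and between -1.68 and -1.60 earlier. The bin of *Pcdha11* changed most (0.54 ± 0.07, SE, adjusted p = 5.6e-08), and those of *Pcdha1* (0.43), *Pcdhac1* (0.44) and *Pcdhb3* (0.39) followed. Bins of these arrays lie close together and share contacts, so they are not independent. The gain was limited to this range of distance, since over 100 kb to 10 Mb none of the 15 was higher and 1 was lower (median -0.05).

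Olfactory and vomeronasal receptor genes, which are silent in B cells, lie mostly in B. Of all 3755 gene-start bins in that compartment, 1611 were higher and 155 lower, with a median of 0.11 (0.02 without correction). Of 565 olfactory receptor bins, 305 were higher and 19 lower (median 0.14), and of 204 vomeronasal bins, 105 were higher and 2 lower (median 0.13). Without correction 23 and 15 bins were higher and none lower, and the vomeronasal median turned to -0.02, while 124 of the gene-start bins in B were higher and 12 lower. At full weight 371 and 147 were higher and 42 and 3 lower, against 2087 and 276 in B as a whole. Without imminent division replicate 1 or 2 and pre-S replicate 1 or 2, the higher olfactory bins numbered 214, 243, 198 and 182 and the higher vomeronasal bins 76, 72, 56 and 61, while those of B as a whole numbered 1231, 1163, 931 and 1067. With TMM factors they were 143, 52 and 813, and over 100 kb to 10 Mb 179, 58 and 900. Keratin genes, with bins in both compartments, had 24 higher and 7 lower of 60 (median 0.08), 16 and none without correction, and 21 and 13 at full weight. Their higher bins numbered 18, 17, 14 and 19 with the same libraries left out, and over 100 kb to 10 Mb 5 were higher and 7 lower (median 0.02). Hox clusters, mostly in A, had none higher and 7 lower of 13 (median -0.15). Without correction these were none and 2, and at full weight none and 10. The share over all gene-start bins was 14.3% higher and 25.4% lower.

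Lists tied to proliferation and B cell function lay mostly in A, where 277 of 9436 gene-start bins were higher and 3200 lower (median -0.08, and 0.0003 without correction). Of 47 DNA replication bins, none was higher and 20 were lower (median -0.09), led by *Gins2* (-0.29), *Cdc6* (-0.28), *Gmnn* (-0.26) and *Pcna* (-0.26). Genes of G1 cyclins, kinases and E2F had 2 higher and 13 lower of 27, mitosis genes 1 and 11 of 32, and those of cohesin, condensin, Ctcf and the lamina 3 and 11 of 26. Ribosomal protein genes had 3 and 45 of 89, B cell identity genes 1 and 9 of 31, plasma cell and secretion genes 1 and 8 of 15, and activation and NF-kappaB genes 1 and 10 of 37. At full weight the lower bins of the first 4 lists numbered 27, 17, 18 and 16 and those of the other 4 numbered 54, 14, 10 and 25, against 5417 in A as a whole. The counts also depended on the libraries. Without pre-S replicate 1 the lower bins numbered 10, 9, 5 and 6 in the first 4 lists and 22, 3, 5 and 5 in the other 4, and 1745 in A. Without any 1 of the other 3 libraries, ribosomal lower bins numbered 27 to 33, DNA replication ones 15, mitosis, plasma cell and activation ones 5 to 7 each, B cell identity ones 5 or 6, G1 ones 8 to 11 and cohesin and condensin ones 7 or 8, with 2014 to 2525 in A. With TMM factors they fell to 9, 5, 2 and 3 and to 11, 1, 3 and 1, with 826 in A. Over 100 kb to 10 Mb they were 13, 9, 8 and 3 and 19, 2, 3 and 3, with 1651 in A. Without correction no bin of these 8 lists passed except 1 of the ribosomal list, which was higher, against 59 higher and 37 lower in A. The medians of these lists then lay between -0.05 and 0, against 0.00 for all gene-start bins. Over 100 kb to 10 Mb the medians of the B cell identity and activation lists turned positive.

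Of the 9 loci the study discusses, *Myc* lies in the segment left out. Of the other 8, the bins of *Ebf1* (-0.29), *Twistnb* (-0.21), *Pax5* (-0.19), *Bcl6* (-0.13), *Id2* (-0.13) and *Bach2* (-0.11) were lower. *Prdm1*, the gene of the plasma cell regulator Blimp-1, had a difference of 0.10 (adjusted p = 0.069) and *Ell2*, an elongation factor of antibody-secreting cells, one of 0.01. With TMM factors only *Ebf1* and *Twistnb* were lower, and *Prdm1* was higher (0.15, adjusted p = 0.034). With DESeq2's Wald test *Id2* (adjusted p = 0.0504) and *Bach2* (adjusted p = 0.12) did not pass. Without correction the adjusted p of the 8 lay between 0.065 and 0.99. *Ebf1* had the smallest, with 0.19 and 0.15 at imminent division against 0.49 and 0.42 at pre-S (-0.29 ± 0.04, SE, adjusted p = 1.4e-07), and -0.18 without correction (adjusted p = 0.065). The adjusted p of *Bcl6* was 0.14 without imminent division replicate 1 and 0.11 without pre-S replicate 1. That of *Id2* was 0.17 without imminent division replicate 1 and 0.25 without pre-S replicate 2, and that of *Bach2* lay between 0.077 and 0.20 without any 1 of the 4 libraries. Over 100 kb to 10 Mb, *Ebf1* and *Twistnb* were lower and *Prdm1* was higher (0.15, adjusted p = 0.0048), and the *Bach2* difference turned to 0.03 (adjusted p = 0.70). Among single bin pairs, *Bcl6* had 2 weaker DIs of 71 tested, *Ebf1* 1 weaker of 50 and *Id2* 1 stronger of 45, while *Twistnb* (106 tested), *Prdm1* (60), *Ell2* (57), *Pax5* (50) and *Bach2* (42) had none. Over all pairs tested, 0.0621% were stronger and 0.184% weaker.

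The 8 bins with the smallest p in each direction were located last. Those higher were the bins of *Mettl4*, a methyltransferase gene, *Gm45871*, *Pex2*, which serves peroxisomes, *Wls*, a carrier of Wnt proteins, *Olfr822*, *Serpinb9f*, a protease inhibitor gene, *2610044O15Rik8* and *Fgf14*, with differences from 0.52 to 0.93. Of these, 6 lie within 1 Mb of the distal end of their chromosome, the exceptions being *Pex2* and *Serpinb9f*. Over all 151 tested bins within 1 Mb of a distal end, 45 were higher and 18 lower, against 1843 and 3337 of the 13040 bins farther away. Without correction the counts were 24 and none, against 159 and 49, and at full weight 43 and 41, against 2313 and 5652.

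The *Mettl4* bin, chr17:94699714-94750252, had -0.17 and -0.14 at imminent division, -0.99 and -0.89 at pre-S and between -1.37 and -0.97 earlier (0.79 ± 0.06, SE, adjusted p = 8.5e-17). Summed counts were 1397 and 1553 against 508 and 455. The *Gm45871* bin, chr18:90550072-90599990, had -0.23 and -0.38 against -1.29 and -1.19 (0.93 ± 0.07, SE). In both, imminent division stood apart and pre-S lay near the earlier libraries. The *Serpinb9f* bin was the reverse, since imminent division (-1.13 and -1.05) lay within the earlier range of -1.15 to -1.03 while pre-S had -1.68 and -1.72. It was covered less at imminent division than at pre-S (-0.77), and without correction its contact difference of 0.24 did not pass (adjusted p = 0.11). *Fgf14* did not pass without correction either (adjusted p = 0.082), whereas the other 6 did.

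Those lower were the *Hist1h2ac* bin above and the bins of *Oscar*, *Prpf31* and *Cnot3* (-0.45), *Fam205a1* (-0.55), *Rpp38*, a ribonuclease P subunit (-0.42), *Nhlrc3* and *Proser1* (-0.40), *Gpnmb* (-0.37), *Atp5o*, of the mitochondrial ATP synthase (-0.35), and *Bank1*, a scaffold of B cell receptor signalling (-0.36). The *Bank1* bin, chr3:136299673-136350946, had -0.28 and -0.36 at imminent division, 0.09 and -0.02 at pre-S and between 0.04 and 0.21 earlier. Without correction, *Bank1*, *Gpnmb* and *Nhlrc3* did not pass (adjusted p = 0.23, 0.27 and 0.079), and the other 5 did.

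**Figure D5:**
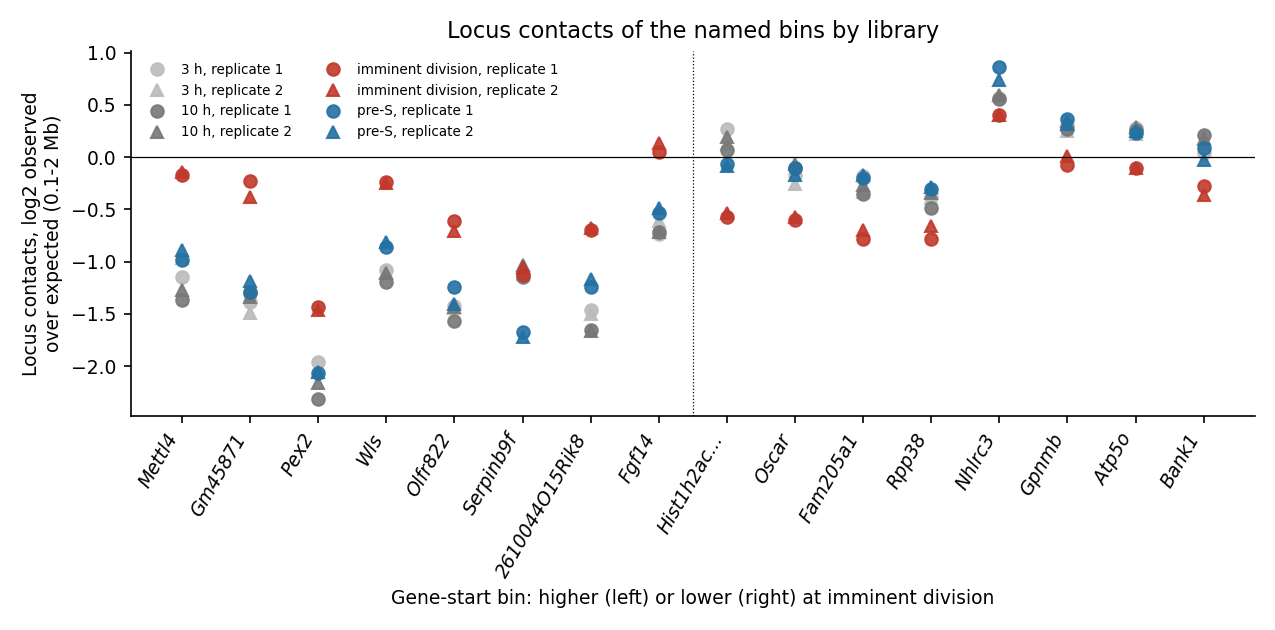
Locus contacts (log2 observed over expected, 0.1 to 2 Mb, weight of 0.5) of the 16 named gene-start bins in each library, each bin labelled with a gene that starts in it. Circles are replicate 1 and triangles replicate 2. The 33 h groups do not overlap in any bin, as the rule required, and imminent division lies beyond the other 6 libraries in all bins except *Serpinb9f*, where pre-S does.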

How the data were processed

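In situ Hi-C had been made from sorted B cells with MboI, which cuts GATC. Per the study's methods, the authors aligned read pairs to mm10 with diffHic, marked duplicates and removed dangling ends and overlong fragments. The deposited files hold whole-number counts of read pairs per pair of 50 kb bins, which, by their values, carry no normalization. Columns of per-sample values left unused numbered 0.

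The bins were rebuilt from GRCm38. Left out were chromosome 15 from 55 to 72 Mb and bins with over 10% undetermined sequence or odd coverage. Coverage per bin was the interchromosomal autosomal read ends. The expected contact of a bin pair carried both coverages at a weight of 0.5, chosen after the replicate pairs had been seen. All fits used the 8 libraries in 4 groups of 2, with the contrast imminent division minus pre-S and FDR 5%. Counts were tested with edgeR 4.0.16 (quasi-likelihood) and log2 values with limma 3.58.1, in R 4.3.3. Bin pairs needed a summed count of 10 and an abundance 4-fold over the interchromosomal background, and had loess offsets fitted apart below and above 1.5 Mb. Insulation minima, called on the mean of the 8 libraries, were 0.2 below the maxima within 500 kb. Alternatives included DESeq2 1.42.0, other weights and scalings, other windows and bin sizes, thinning to 105015427 read pairs, each 33 h library left out and the replicate number as a block. The full weight, and leaving out libraries for coverage by compartment and GC content, switches, named compartment bins and single values, were added after the data had been seen. Scripts were tested on simulated data.

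The comparison and the gene lists were chosen with earlier results of these data known. Named items were those with the smallest p each way whose groups did not overlap, at most 1 per 2 Mb (5 interactions, 8 loci, 4 minima). Named compartment bins were the 4 largest switches each way, and lists gave up to 4 members each, besides the 9 loci the study discusses. Bins lying side by side share read pairs. Intervals were not given, since PCR reads carry no molecular identifiers.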

Additional observations from a re-analysis of the deposited data

Results flagged for a closer look

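Outside the autosomes compared above, 3.74% of read ends of imminent division replicate 2 lay on the X chromosome, against 2.39% to 2.84% in the other 7 libraries, with a median of 2.49%. Its share on the Y chromosome was 0.0490%, against 0.0804% to 0.123%. All mice are described as male. Neither chromosome entered a comparison. The counts of each test were also computed without this library. Those for bin coverage, compartments and DIs moved by over 1.5 times, and their values without it are given above.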

How the results depend on the processing

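With each 33 h library left out in turn, the bins differing in coverage numbered 6780 to 28545, decay combinations 254 to 273, insulation bins 21919 to 23590 and minima 849 to 1048. Compartment bins numbered 1868 to 5137, class combinations 139 to 171, loci 2866 to 3980 and DIs 205 to 699. The difference in slope was then -0.10 to -0.08, in long-range share -4.17 to -2.94 percentage points and in compartment strength -9.32 to -3.22. Without coverage correction, 5749 insulation bins, 577 minima, 97 class combinations and 232 loci passed. At full weight, 8049 loci and 22873 DIs did. TMM factors gave 1980 loci and 11506 DIs, and the DESeq2 Wald test 2851 loci and 5 DIs. DIs numbered 7194 with a factor per distance class and 884 after thinning. In 100 kb bins they numbered 25602 of 279713 pairs tested, against 3557 of 1444530 in 50 kb bins. Bins of 100 kb gave 12558 of 23621 in coverage, against 21074 of 47000 in 50 kb bins. Bins of 250 kb gave 2720 of 9429 in compartments, against 5859 of 23621 in 100 kb bins. With 10 distance classes per decade 510 of 576 decay combinations passed, and with contacts up to 10 Mb 3082 loci did. Insulation called 18546 bins with a window of 250 kb. The study's ratio of upstream to downstream counts, tested against a fold of 1.1, called 1086 of 23550 regions of 100 kb. Of these, 810 had a weaker boundary contrast at imminent division and 276 a stronger one. The causes were not tested.

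Values of single genes that changed sign were *Ell2* contacts, whose small difference lay between -0.0039 and 0.016 with each 33 h library left out (-0.0039 without imminent division replicate 2 and -0.0017 without pre-S replicate 2), and was -0.0017 without correction and -0.024 with all read ends as coverage. Others were *Bach2*, *Pcdha1* and *Pcdhb3* contacts up to 10 Mb (0.027, -0.0066, -0.016), and insulation of *Twistnb* with a window of 1 Mb (-0.16, which passed), *Ebf1* with one of 250 kb (-0.0032) and *Prdm1* without correction (0.031).

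Replicate numbers were not taken as pairs, since deviations of same-numbered libraries correlated at 0.15 for coverage, -0.05 for insulation and -0.02 for loci. With the replicate block, 18106 bins in coverage, 264 decay combinations, 28181 insulation bins, 1162 minima, 5885 compartment bins, 162 class combinations, 4896 loci and 3048 DIs passed. After thinning to the shallowest 33 h library 884 DIs were called, against 3557 at full depth.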
